A study of Mus musculus with 8 samples.

Results

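Fatty acid oxidation and the peroxisome were followed through 48 genes in splenic cDC1 of mice sorted by a mitochondrial dye signal. The genes were picked by symbol for their roles, with earlier results of these data known. cDC1 are type 1 conventional dendritic cells, which present antigen to CD8 T cells. Of the 48, 44 had a probe set under their symbol in the platform annotation used, 1 each, among 19505 named genes and 22206 probe sets. Acsl1, Acsl3, Etfb and Ppard had none there and were not analysed here. Each of 8 Affymetrix whole-transcript arrays held cDC1 of naive wild-type C57BL/6 mice, 4 of a TMRM/MG-high and 4 of a TMRM/MG-low fraction, called high and low here. TMRM is a dye drawn into mitochondria by their membrane potential, and the labels leave MG unexplained. Sex, age and pooling of the animals are not given in the sources used here. No label says that same-numbered or different arrays came from separate animals, so each p-value measures the spread between these arrays, which may be technical. Signals are log2 values, and differences are high minus low, relative to the other probe sets.

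Mitochondrial beta-oxidation shortens fatty acids that have been activated to acyl-CoA and carried across the inner membrane on carnitine. Each round runs through a dehydrogenase, a hydratase, a second dehydrogenase and a thiolase, and the first of these hands its electrons to the electron transfer flavoprotein and on to ubiquinone. Peroxisomes start the same chemistry with an oxidase that makes hydrogen peroxide, take on very long and branched chains, and depend on peroxins to import their enzymes. Mitochondrial oxidation of fatty acids feeds electrons to the respiratory chain, which builds the potential that draws in TMRM.

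In the high fraction 12 of the 44 genes rose and 1 fell (limma, adjusted p under 0.05 over all probe sets), or 27.3% and 2.27%, where 5.28% and 2.96% of all probe sets were called in these directions. Many probe sets are dim: with those under the median of the negative controls left out, 15 of 42 genes and 8.29% of 16540 probe sets were called higher. The median difference of the 44 was 0.13, against 0.0093 over all probe sets. Because the genes were chosen with earlier results known, these shares and medians describe the list and were not tested as an enrichment. In 16 genes the 4 high arrays all lay above the 4 low arrays, and in 1 gene all below, where 9.7% and 6.37% of all probe sets did so. The rises were Acsl4 and Acsl5, which activate fatty acids, Acad11, Hadhb, Echs1 and Eci2 of the spiral itself, the electron carriers Etfa and Etfdh, the thioesterase gene Acot9, the peroxins Pex2 and Pex3, and the peroxisomal Hsd17b4. The fall was in Acox3, a peroxisomal oxidase.

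Several other measures moved with the fractions. Poly-A spike-ins, RNAs added to each sample, had a mean signal of 5.99 to 6.96 in the high and 7.27 to 7.85 in the low arrays, which do not overlap. The hybridization control bioB (9.93 to 10.2 in the high, 10.9 to 11.4 in the low arrays) and the median positive control (10.4 to 10.5 against 10.2 to 10.4) did not overlap either. For the latter, high arrays averaged 10.44 and low arrays 10.28, a gap of the same order as the median difference of the 44 genes. With the poly-A mean as a covariate 0 of the 44 genes were called (limma), as were 0 of all probe sets. Of the 44 genes, 0 in the higher and 2 in the lower direction had an unadjusted p under 0.05, as had 1132 of all probe sets. The poly-A mean itself separates the fractions, so this fit can hardly tell the spike-in level apart from the fraction. The loss of calls in it therefore decides nothing about the genes. In that fit the difference was 0.62 for Etfdh (0.64 without the covariate), 0.41 for Echs1 (0.40), 0.35 for Acot9 (0.42), 0.42 for Acsl4 (0.61), 0.25 for Acsl5 (0.31) and -0.38 for Acox3 (-0.38). It was smaller by over 1.5 times for the other genes called without it, at 0.25 for Hadhb (0.50), 0.22 for Hsd17b4 (0.51), 0.20 for Etfa (0.43), 0.15 for Acad11 (0.57), 0.12 for Pex3 (0.37), 0.075 for Eci2 (0.48) and 0.0013 for Pex2 (0.43). Of 13 plasmacytoid dendritic cell markers 11 were higher in the high fraction, where their mean level was 9.95 to 10.4 against 9.23 to 9.41. Of 15 T and NK cell markers 5 were lower (8.72 to 9.28 against 9.06 to 9.90), as was 1 of 9 neutrophil markers (8.56 to 9.47 against 9.45 to 10.1). Of 12 cDC1 markers none was called, and their mean level was 12.0 to 12.2 in the high and 11.9 to 12.2 in the low arrays. Single cDC1 markers did separate: the high arrays all lay above the low ones for Xcr1 (0.14) and Cd8a (0.31), and below for Clec9a (-0.21) and Wdfy4 (-0.16). The other cDC1 markers overlapped. Of 12 cDC2 markers 1, Notch2, was lower (-0.33, limma adjusted p = 0.0287). No marker of the plasmacytoid, T and NK cell, neutrophil and cDC1 lists lay below the negative control median in both fractions, and 1 cDC2 marker did. The part of these other cells in the values that follow was not tested, and in bulk RNA fewer cells of a type cannot be told apart from less RNA per cell.

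Arrays of one fraction also differed from each other. Among the 12 genes that rose, high replicate 1 was the lowest high array in 8 and low replicate 3 the highest low array in 8. High replicate 2 was the highest of its fraction in 8, and low replicate 1 the lowest of its fraction in 8. Over all 44 genes the median deviation from each gene's mean was -0.08, -0.14, 0.0013 and -0.13 in low replicates 1 to 4. It was -0.0072, 0.14, 0.10 and 0.091 in high replicates 1 to 4, so high replicate 1 lay below low replicate 3 on this measure.

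**Figure D1:**
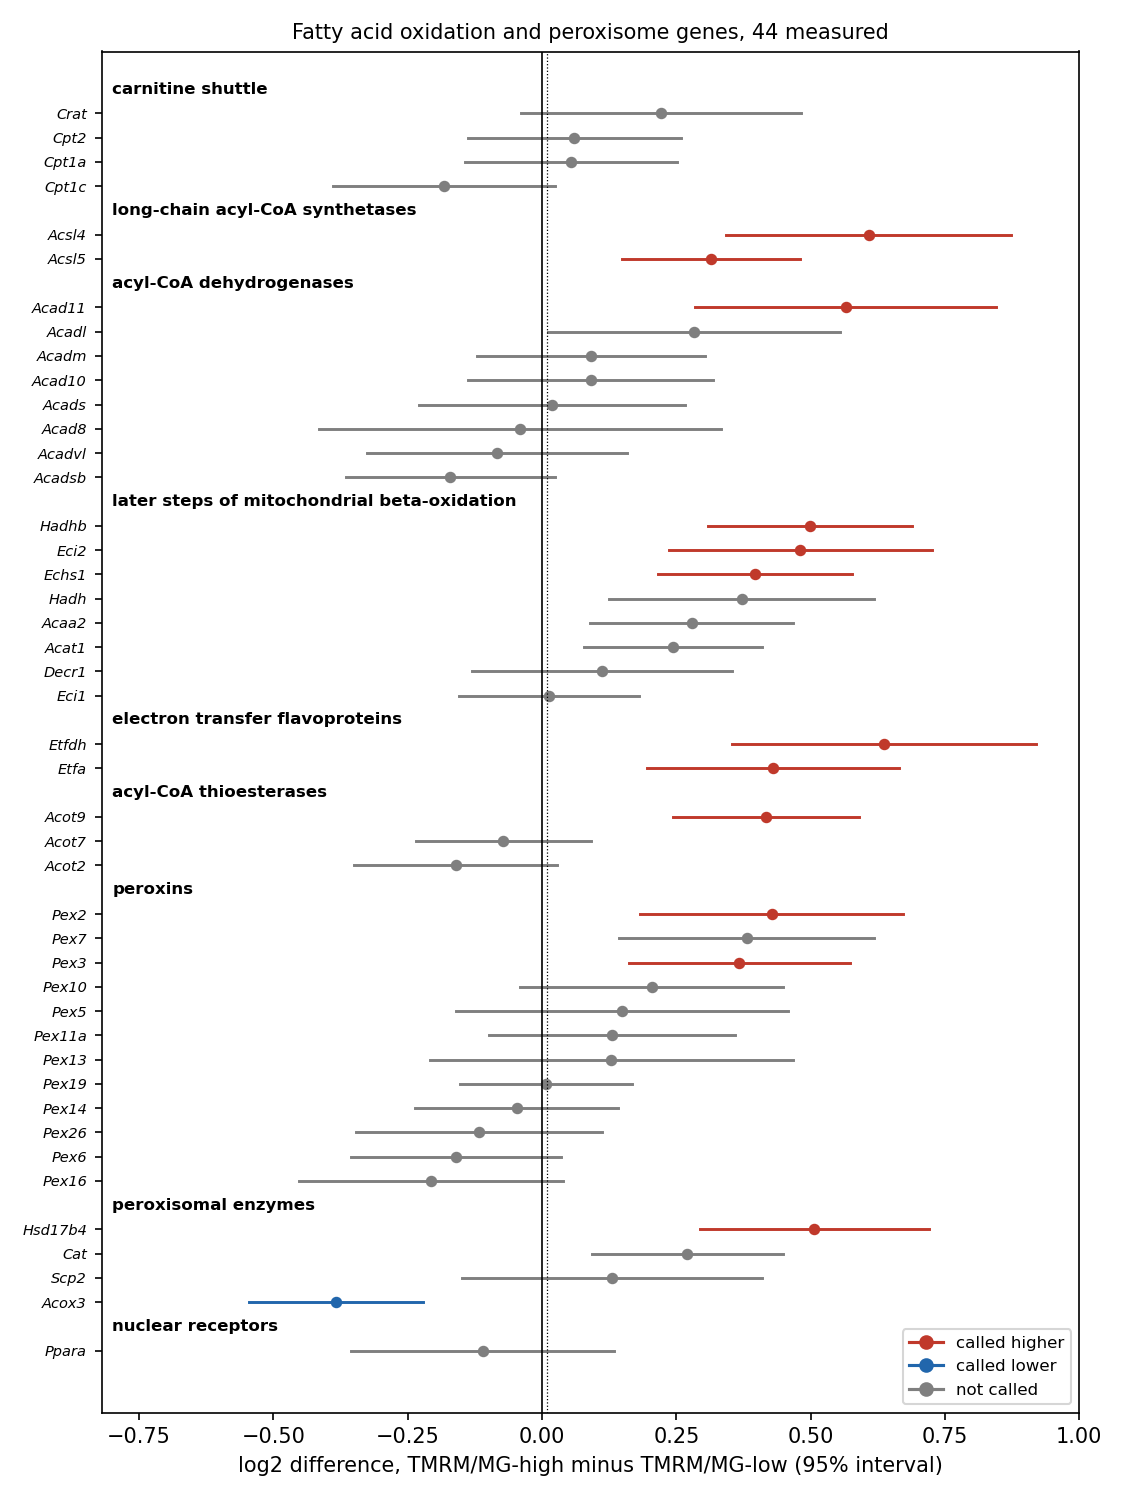
Log2 difference (high minus low) of each of the 44 measured genes with its 95% interval, in blocks by role; red genes were called higher, blue lower and grey not called, and the dotted line is the median of all probe sets (0.0093). The flavoproteins and most later steps lie to the right, and the carnitine shuttle and most dehydrogenases straddle 0. Of the later steps, Eci1 and Decr1 straddle 0 as well. Acox3 lies furthest to the left and is the only gene called lower.

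Sequences upstream of 3 of these genes are shown because they are the head-to-head promoter of the gene with the smallest p, the promoter of the largest rise, and the promoter of the fall. They come from RefSeq windows of build GRCm38.p6 and hold the 250 bases before the annotated transcript start, 5′ to 3′ on the gene's strand. Capitals mark matches on either strand to the SP1 box GGGCGG or to the NRF1 site GCGCATGCG. Hadhb lies at chr5:30155003-30155252 on the plus strand, Etfdh at chr3:79628768-79629017 on the minus strand and Acox3 at chr5:35582784-35583033 on the plus strand.
Hadhb: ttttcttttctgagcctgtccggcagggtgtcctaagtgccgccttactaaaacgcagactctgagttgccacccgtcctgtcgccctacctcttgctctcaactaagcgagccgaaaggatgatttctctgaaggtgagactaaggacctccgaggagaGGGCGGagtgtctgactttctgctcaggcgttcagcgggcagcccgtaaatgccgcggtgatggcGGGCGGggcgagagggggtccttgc
Etfdh: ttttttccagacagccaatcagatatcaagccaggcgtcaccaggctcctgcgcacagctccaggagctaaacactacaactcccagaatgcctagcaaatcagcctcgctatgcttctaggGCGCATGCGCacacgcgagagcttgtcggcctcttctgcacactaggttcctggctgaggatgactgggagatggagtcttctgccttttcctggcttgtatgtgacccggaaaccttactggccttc
Acox3: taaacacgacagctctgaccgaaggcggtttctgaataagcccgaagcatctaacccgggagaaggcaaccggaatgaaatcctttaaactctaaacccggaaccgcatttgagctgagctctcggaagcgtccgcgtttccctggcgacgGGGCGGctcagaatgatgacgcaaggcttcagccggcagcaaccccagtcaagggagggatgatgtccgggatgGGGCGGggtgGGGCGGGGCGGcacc

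Hadhb and its partner Hadha, which encode the beta and alpha subunits of the mitochondrial trifunctional protein, face away from each other, and 228 bases of their 300-base windows are the same DNA. The upstream stretch of Hadhb holds SP1 boxes at -90 to -85 and at -25 to -20, counted from the transcript start at 1. Etfdh holds overlapping matches to the NRF1 site, on its own strand at -128 to -120 and on the other at -127 to -119. Upstream of Acox3 there are SP1 boxes at -99 to -94, -25 to -20, -15 to -10 and -10 to -5, and no NRF1 match in the window. All of these are matches of letters only.

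RefSeq promoter windows were found for 37 of the 44 genes, 40 in all, each of 250 bases before and 50 after a start. Crat, Acaa2, Acat1, Decr1, Pex2, Pex19 and Hsd17b4 had none. The SP1 box was in 75% of the windows, against 47.9% of windows of all genes named on the array and 35.7% of all windows. It was in 70% of the windows of risen genes and 75.9% of those of genes not called. The median GC content was 59.8% in these windows and 57% in those of all named genes, and it was 60.5% for risen genes and 59.3% for genes not called. The NRF1 site was in 10% of the windows (Etfdh, Acadm, Acad10 and Ppara), against 2.44% for all named genes. It was in 10% of the windows of risen genes (1 of 10) and 10.3% of those of genes not called. The ETS site CCGGAAG was in 10% of the 40 windows against 11.8%, with 0% for risen genes and 13.8% for genes not called. Neither the ERR site TCAAGGTCA (0.303% of all named genes' windows) nor a pair of AGGTCA half-sites 1 base apart, the PPAR type (0.0522%), occurred in the 40 windows. The ERR site itself contains the AGGTCA half-site.

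The carnitine shuttle, which brings long acyl chains into mitochondria, had 0 of 4 genes called and a median difference of 0.057. Cpt1a, the outer membrane transferase that limits the rate of import, read 10.67, 10.53, 10.87 and 10.84 in low replicates 1 to 4 and 10.81, 10.75, 10.82 and 10.75 in high replicates 1 to 4. The low arrays lay on both sides of the high ones, and the difference of 0.05 had a 95% interval of -0.14 to 0.25. Cpt2, the inner membrane transferase, differed by 0.06 (interval -0.14 to 0.26). Crat, which transfers acetyl groups, read 8.49, 8.47, 8.58 and 8.18 in the low and 8.42, 8.92, 8.67 and 8.60 in the high arrays (0.22, limma adjusted p = 0.272). Cpt1c, the form best known from neurons, read 8.87, 8.64, 8.54 and 8.83 in the low and 8.62, 8.43, 8.57 and 8.54 in the high arrays (-0.18, adjusted p = 0.255). Both overlapped between the fractions.

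Of the long-chain acyl-CoA synthetases, which activate fatty acids, Acsl4 and Acsl5 were measured among the 44 genes and both rose. A further member of the family, Acsl6, was measured among the other pathway genes and was not called (-0.07, adjusted p = 0.778). Acsl4, which prefers arachidonate and other polyunsaturated chains, read 10.19, 10.69, 10.78 and 10.49 in the low and 11.07, 11.28, 11.10 and 11.14 in the high arrays. The high arrays lay close together (11.1 ± 0.091, SD, n = 4) and above all low arrays (10.5 ± 0.26), a difference of 0.61 (SE 0.12, limma adjusted p = 0.0158) or 1.52-fold. Acsl5, found on mitochondria and the endoplasmic reticulum, read 10.77, 10.84, 10.86 and 10.81 in the low and 11.09, 11.15, 11.08 and 11.22 in the high arrays. Its fractions were tight and did not overlap, with a smaller difference of 0.31 (SE 0.076, adjusted p = 0.0299).

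The acyl-CoA dehydrogenases take the first step of the spiral and differ in the chains they accept. Of 8 measured, 1 rose and 0 fell, with a median of 0.054. Long-chain Acadl read 9.34, 9.58, 9.77 and 9.16 in the low and 9.73, 9.80, 9.84 and 9.60 in the high arrays (0.28, adjusted p = 0.18), and low replicate 3 lay within the high range. The enzymes for medium, short and very long chains, Acadm (0.09), Acads (0.02) and Acadvl (-0.08), had adjusted p of 0.611 to 0.941 and intervals between -0.33 and 0.30. Acadsb (-0.17) and Acad8 (-0.04), which act in the breakdown of isoleucine and valine, and Acad10 (0.09) were not called either. Acad8 varied within the low fraction (10.2 ± 0.43, SD, n = 4), where replicates 1 and 2 read 9.93 and 9.70 and replicates 3 and 4 read 10.52 and 10.57.

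Acad11, a dehydrogenase of longer chains, was the one that rose. It read 6.51, 6.46, 7.06 and 6.79 in the low and 7.21, 7.41, 7.31 and 7.14 in the high arrays, without overlap (0.57, SE 0.13, adjusted p = 0.0247). Its low mean of 6.70 lay under the negative control median of that fraction (6.75), so the size of this difference is uncertain.

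All 8 genes of the later steps had a positive difference, as had 11567 of all 22206 probe sets. Of the 8, 3 were called higher (37.5%, against 5.28% of all probe sets), and the median was 0.32. Eci1 lay near 0 (0.01) and Decr1 below the negative control median in both fractions, so their signs tell little. Hadhb, whose product carries the thiolase of the trifunctional protein, read 10.30, 10.45, 10.58 and 10.46 in the low and 10.84, 10.92, 11.04 and 10.98 in the high arrays. The fractions were 10.4 ± 0.11 and 10.9 ± 0.086 (SD, n = 4) and far apart, with a difference of 0.50 (SE 0.087, adjusted p = 0.0104) or 1.41-fold, the smallest p of the 44. Hadha, the other subunit gene, read 9.98, 9.93, 10.04 and 9.92 against 10.11, 10.34, 10.07 and 10.22 and did not pass the test (0.22, SE 0.085, adjusted p = 0.136), although its high arrays also lay above its low ones. The intervals of Hadhb (0.31 to 0.69) and Hadha (0.03 to 0.40) overlap, and the difference between these genes was not tested.

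Echs1, the hydratase for short chains, read 9.77, 9.62, 9.63 and 9.63 in the low and 10.03, 10.18, 10.07 and 9.95 in the high arrays (0.40, SE 0.083, adjusted p = 0.0184). Eci2, an isomerase that moves the double bond of unsaturated chains and is also found in peroxisomes, read 9.21, 9.34, 9.67 and 9.43 against 9.72, 10.09, 9.87 and 9.91 (0.48, SE 0.11, adjusted p = 0.0268). For Eci2 low replicate 3 lay just under high replicate 1, while for Echs1 the fractions were clearly apart. Its mitochondrial relative Eci1 read 10.11 to 10.15 in the low and 10.04 to 10.21 in the high arrays, a difference of 0.01 with an interval of -0.16 to 0.18.

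Hadh, the dehydrogenase of hydroxyacyl chains (0.37, adjusted p = 0.0639), the thiolase gene Acaa2 (0.28, adjusted p = 0.0699) and Acat1, which splits acetoacetyl-CoA (0.24, adjusted p = 0.0691), missed the threshold. In each of these 3 the high arrays lay above every low array. For Hadh the gap was narrow, since low replicate 1 read 8.71 and high replicate 3 read 8.77. Decr1, a reductase for unsaturated chains, lay below the negative control median in both fractions (5.93 and 6.04), so its difference of 0.11 is uncertain.

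Electron transfer from the dehydrogenases to ubiquinone runs through the flavoprotein and its oxidoreductase, and both measured genes of it rose (median 0.53). Etfdh, the oxidoreductase at the inner membrane, read 8.30, 8.30, 8.13 and 7.75 in the low and 8.53, 8.91, 8.73 and 8.84 in the high arrays. Its difference of 0.64 (SE 0.13, adjusted p = 0.017), or 1.56-fold, was the largest of the 44 measured genes, and low replicate 4 lay well under the other low arrays. Etfa, the alpha subunit of the flavoprotein, read 10.52, 10.84, 11.06 and 10.80 in the low and 11.18, 11.31, 11.23 and 11.23 in the high arrays (0.43, SE 0.11, adjusted p = 0.0338). The high arrays were tight (11.2 ± 0.053, SD, n = 4) and the low ones spread (10.8 ± 0.22), with low replicate 3 nearest the high fraction.

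Acyl-CoA thioesterases release free acids from acyl-CoA, and 1 of the 3 measured rose. Acot9, a mitochondrial form, read 9.80, 9.83, 9.83 and 9.82 in the low and 10.16, 10.33, 10.15 and 10.31 in the high arrays. Its low arrays were nearly identical (9.82 ± 0.013, SD, n = 4), and the difference was 0.42 (SE 0.079, adjusted p = 0.0133). Acot2, which is also mitochondrial, and Acot7, which is cytosolic, differed by -0.16 and -0.07 and were not called (adjusted p = 0.273 and 0.598).

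**Figure D2:**
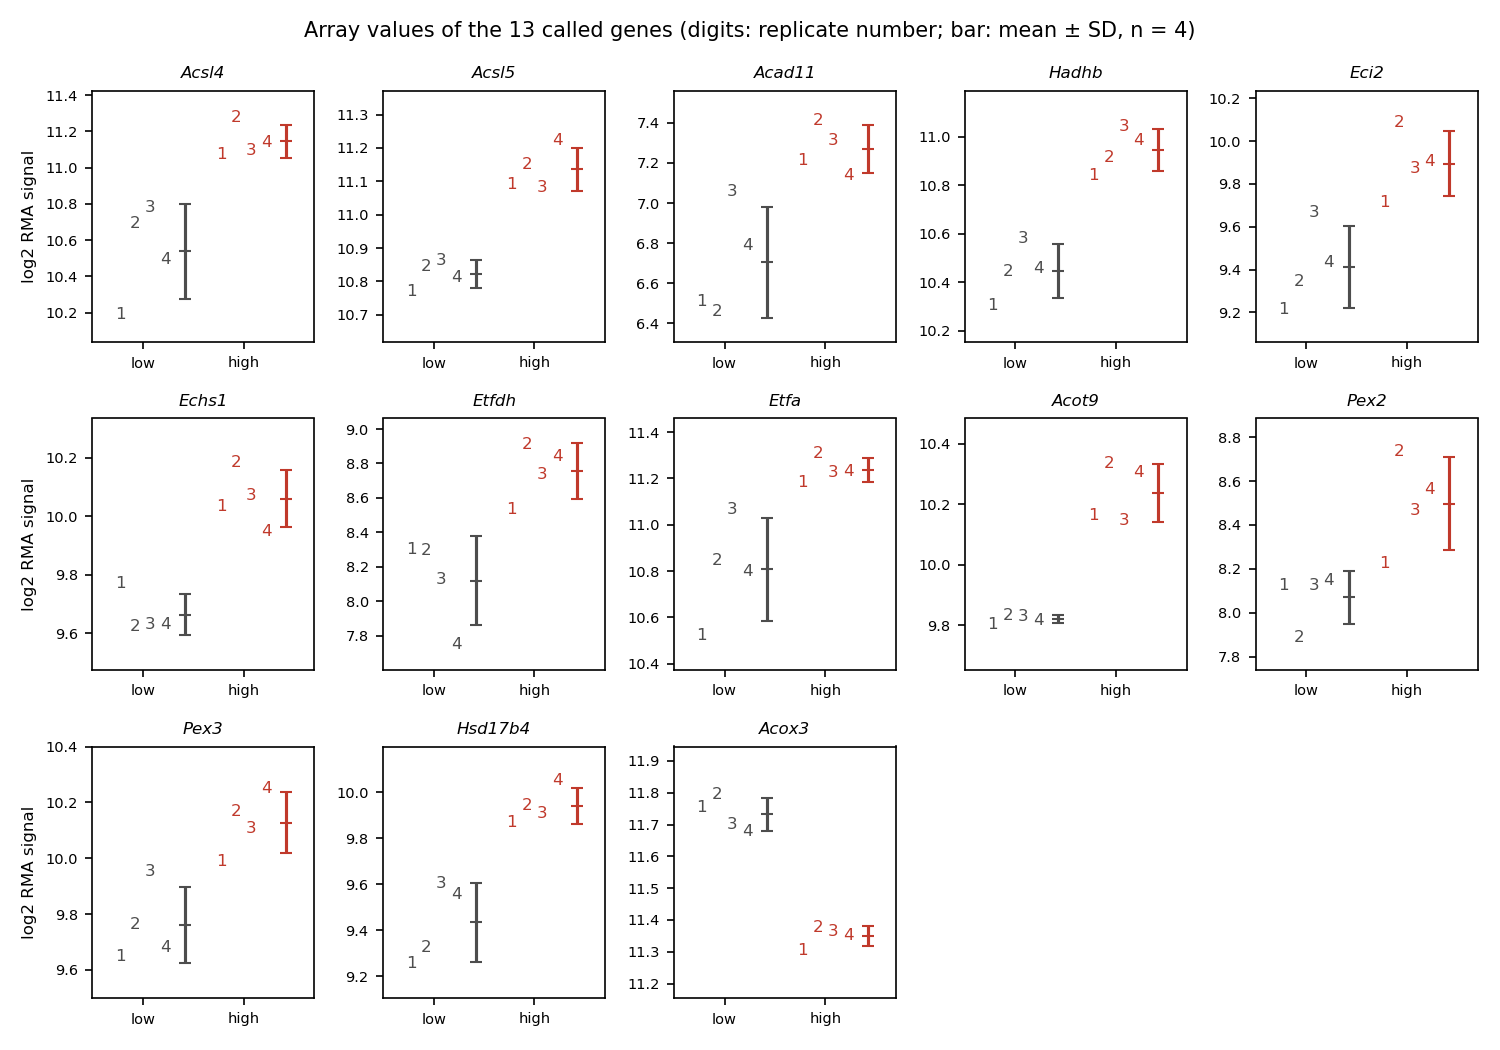
Log2 signal of the 13 called genes, with each digit a replicate at its value and bars giving the mean ± SD (n = 4) of the low (grey) and high (red) fraction; every panel has its own vertical range. Low replicate 3 is the highest grey digit in 8 of the 12 risen genes, and high replicate 1 the lowest red digit in 8, not always the same ones. Only Acox3 runs downward.

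Peroxins build the organelle and import its proteins. Of 12 measured, 2 rose and 0 fell, with a median of 0.13 and differences from -0.21 to 0.43. Pex2, part of the ubiquitin ligase that recycles the import receptor, read 8.12, 7.89, 8.12 and 8.15 in the low and 8.23, 8.74, 8.47 and 8.56 in the high arrays (0.43, SE 0.11, adjusted p = 0.039). Pex3, which docks new membrane proteins, read 9.65, 9.76, 9.95 and 9.68 against 9.99, 10.17, 10.11 and 10.25 (0.37, SE 0.094, adjusted p = 0.0366). In both genes the fractions did not overlap, but high replicate 1 lay close above the highest low array.

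Genes that work beside these were not called. Pex10, which joins Pex2 in the ligase, lay below the negative control median in both fractions (6.67 and 6.47). Pex19 and Pex16, which act with Pex3 in membrane insertion, differed by 0.01 (interval -0.15 to 0.17) and -0.21 (-0.45 to 0.04). Pex7, the receptor for the less common import signal, read 8.69, 8.80, 9.08 and 8.81 in the low arrays and 9.31, 9.24 and 9.35 in high replicates 2 to 4, while high replicate 1 lay between low replicates 3 and 4. Its difference of 0.38 (SE 0.11, adjusted p = 0.0521) just missed the threshold. Pex5, the receptor for the common signal, differed by 0.15 (interval -0.16 to 0.46), and the docking genes Pex13 and Pex14 by 0.13 and -0.05. Pex13 had the largest spread of the 44 genes within the high fraction (7.53 ± 0.34, SD, n = 4), where replicate 1 read 7.04 and the others 7.56 to 7.79. The export motor gene Pex6 (-0.16), its anchor Pex26 (-0.12) and the division gene Pex11a (0.13) were not called.

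The 4 peroxisomal enzymes went in both directions, with 1 rise and 1 fall. Hsd17b4, the bifunctional enzyme that carries out the middle steps of peroxisomal beta-oxidation, read 9.26, 9.32, 9.60 and 9.56 in the low and 9.87, 9.94, 9.91 and 10.05 in the high arrays. The fractions did not overlap, and the difference was 0.51 (SE 0.098, adjusted p = 0.014) or 1.42-fold. Acox3, an oxidase that starts the breakdown of branched chains, read 11.75, 11.80, 11.70 and 11.68 in the low and 11.30, 11.37, 11.36 and 11.35 in the high arrays. Its spread was small in both fractions (11.7 ± 0.052 and 11.3 ± 0.031, SD, n = 4), and it fell by 0.38 (SE 0.074, adjusted p = 0.0145).

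Cat, the catalase that removes the peroxide made by the oxidases, read 12.17, 12.17, 12.29 and 12.15 in the low and 12.36, 12.44, 12.58 and 12.49 in the high arrays. The fractions did not overlap, but the difference of 0.27 (SE 0.082, adjusted p = 0.0625) missed the threshold. Scp2, a carrier and thiolase, differed by 0.13 and overlapped (adjusted p = 0.571). Peroxins and peroxisomal enzymes together had 3 rises and 1 fall among 16 (18.8% and 6.25%), and the 22 genes of shuttle, dehydrogenases, later steps and flavoproteins had 6 rises and 0 falls (27.3%). Their medians were 0.13 and 0.17, and the difference between these groups was not tested. Eci2 is also found in peroxisomes but was counted among the later steps, so these shares depend on where such genes are placed.

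Ppara, the nuclear receptor that activates many genes of both organelles, read 7.81, 7.54, 7.38 and 7.81 in the low and 7.64, 7.59, 7.49 and 7.37 in the high arrays. These overlapped, and the difference of -0.11 had an interval of -0.36 to 0.13.

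**Figure D3:**
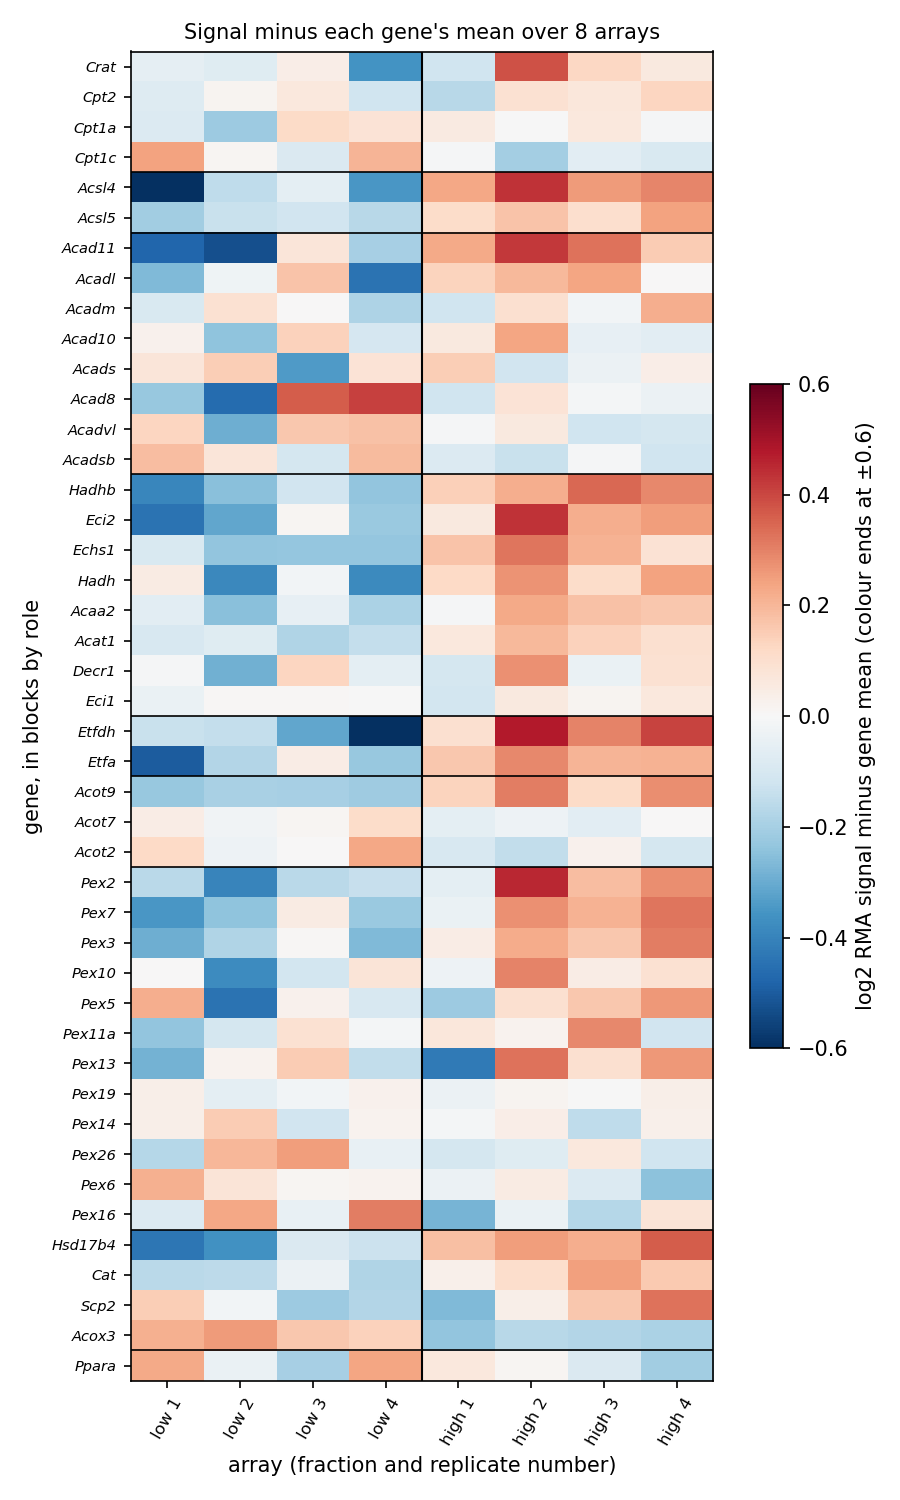
Log2 signal of each gene minus its own mean over the 8 arrays (colour, red above and blue below, ending at ±0.6), with genes in blocks by role and arrays in columns, low left and high right of the line. The block of flavoproteins and most genes of the later steps turn from blue to red at the line, though Eci1 and Decr1 do not. Low replicate 3 and high replicate 1 are the palest columns there, while the dehydrogenase and shuttle blocks are mixed.

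How far the calls rested on single arrays differed by gene. Without 1 array in turn, the 12 rises became 6, 5, 16 and 7 on leaving out low replicates 1 to 4, and 15, 2, 4 and 7 on leaving out high replicates 1 to 4. Over all probe sets the share called higher also moved, from 0.824% without high replicate 2 to 7.57% without low replicate 3. Hadhb, Hsd17b4 and Acox3 kept their calls in all 8 omissions, with differences of 0.45 to 0.54, 0.45 to 0.56 and -0.40 to -0.36. Acsl4 and Acot9 lost theirs only without high replicate 2 (adjusted p = 0.0558 and 0.0507), and Etfdh without high replicate 2 (0.0589) or high replicate 3. The call of Echs1 was lost without low replicate 2, high replicate 2 (0.0663) or high replicate 3, and that of Acad11 without these or low replicate 1 (highest adjusted p = 0.0797). Acsl5, Eci2, Etfa, Pex2 and Pex3 were called only with all 8 arrays or without low replicate 3 or high replicate 1, and their highest adjusted p was 0.086, 0.0842, 0.0981, 0.116 and 0.102. Without low replicate 3, Acadl, Hadh, Pex7 and Cat were called as well, and without high replicate 1 Acaa2, Pex7 and Cat. None of the 13 called genes changed direction in any of these omissions. That was fixed in advance, since the high and low arrays of each of these genes did not overlap. After quantile normalization Acsl5 was no longer called (adjusted p = 0.0586), and after centring on array medians Pex3 was not.

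A further 82 genes of the same pathways had 8 rises and 1 fall (9.76% and 1.22%) and a median difference of 0.045. Over all probe sets 5.28% and 2.96% were called in these directions, and the median was 0.0093. The list was chosen with earlier results of these data known. Among them Slc25a20, the carrier that brings acylcarnitine across the inner membrane, rose by 0.53 (SE 0.13, adjusted p = 0.029), the only one of 4 further shuttle genes. It read 10.50 to 11.13 in the low and 11.22 to 11.36 in the high arrays. Acss1, which makes acetyl-CoA from acetate in mitochondria, rose by 0.60 (SE 0.098, adjusted p = 0.00871), and the fatty acid receptor Cd36 by 0.37 (adjusted p = 0.0428). They were 2 of 10 uptake and activation genes, with a median of 0.087, and Acsf2, another acyl-CoA synthetase, differed by -0.21 (adjusted p = 0.191).

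Of 16 further mitochondrial oxidation genes 4 rose and 0 fell, with a median of 0.21. Pcca, a subunit of the carboxylase that takes up propionyl-CoA from odd chains and amino acids, read 8.25, 8.67, 9.24 and 9.06 in the low and 9.50, 9.71, 9.57 and 9.60 in the high arrays (0.79, SE 0.17, adjusted p = 0.0219). Its partner subunit Pccb (0.53, adjusted p = 0.0684) and the mutase gene Mmut of the same route (0.46, adjusted p = 0.0823) were not called. Ech1, an isomerase for unsaturated chains, rose by 0.39 (adjusted p = 0.016), Hsd17b10, an isoleucine pathway dehydrogenase, by 0.36 (adjusted p = 0.039), and Hibadh, a valine pathway dehydrogenase, by 0.34 (adjusted p = 0.0279).

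Of 25 further peroxisomal enzymes and transporters 1 rose and 1 fell. The coenzyme A hydrolase gene Nudt19 rose by 0.50 (SE 0.10, adjusted p = 0.0183), and Dao, a D-amino acid oxidase, fell by 0.33 (SE 0.086, adjusted p = 0.0374). None of 2 further peroxins, 9 thioesterases, 8 PPAR partners and targets, or 8 genes of lipid stores was called. Pparg differed by -0.02, Ppargc1a by 0.26 (adjusted p = 0.317) and Ppargc1b by -0.11. The 8 rises of these 82 genes became 3, 2, 13 and 4 without low replicates 1 to 4, and 8, 1, 1 and 3 without high replicates 1 to 4. Acss1 alone among the 9 calls was kept in all 8 omissions, and Dao was called in 1 of them. Dao was also not called with the replicate number as a block (adjusted p = 0.0615) or, by a narrow margin, with an intensity trend and robust fit. After quantile normalization Cd36 (0.0681), Hibadh (0.0605) and Hsd17b10 (0.0585) were not called.

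**Figure D4:**
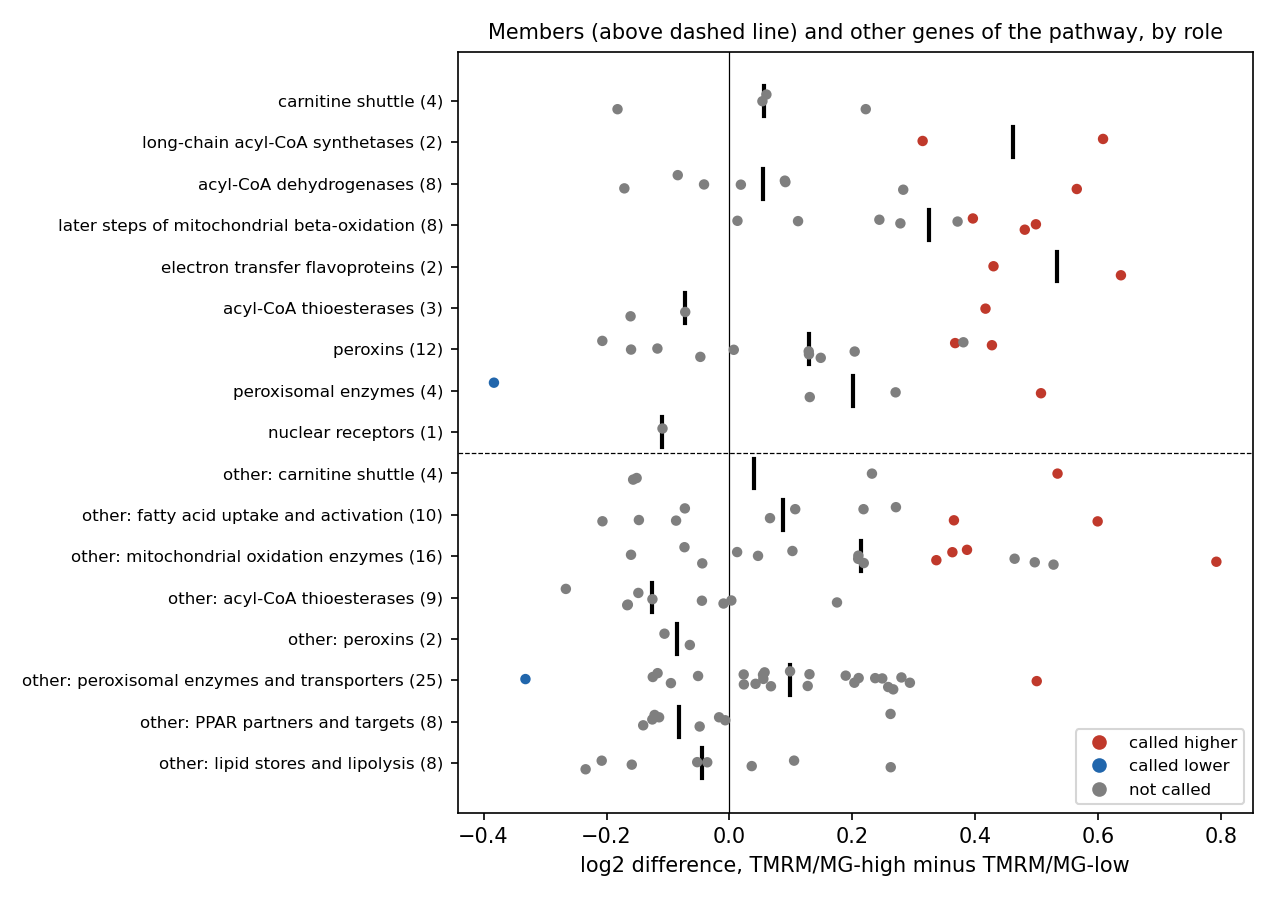
Log2 difference (high minus low) of each gene, by role, for the 44 measured genes (above the dashed line) and 82 other genes of the pathways (below), with the number of genes in brackets; black bars are medians, and red and blue points were called. Mitochondrial oxidation genes below the line have a median of 0.21, and PPAR partners and targets one of -0.08.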

How the data were processed

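The values are the deposited log2 signals of 8 arrays, made by the authors with RMA in Affymetrix Expression Console 1.1, per the submitters' processing notes. RMA gives all arrays one distribution, so a change shared by most transcripts is removed. No build for the arrays is named in these sources, and the small number of arrays limits precision. Of 28846 rows, 6640 control probe sets were left out. The 22206 others were compared with limma 3.58.1 (lmFit, then eBayes; R 4.3.3), two-sided, without a block, with Benjamini-Hochberg adjustment over all of them and a threshold of 0.05. The script was tested on simulated data. A gene with several probe sets would enter with that of highest mean, but each of the 44 genes has 1.

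The genes, roles, lists and alternatives were chosen with earlier results of these data known. Array values are given for called genes and, in a role without a call, for the 2 smallest p, and for some further genes picked after their values were seen. Among the other pathway genes, those called and Slc25a20, Hadha, Pparg, Ppargc1a and Ppargc1b were to be named, and Pccb and Mmut were picked after their values were seen. Alternatives were the replicate number as a block, 2 other scalings, leaving out dim probe sets, another variance model, array weights, other thresholds, averaging probe sets by gene, the spike-in level as a covariate and leaving out each array. A planned look at protein ends was not run here. Motifs were searched on both strands of the RefSeq windows. Figures were drawn with matplotlib 3.10.9.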

Additional observations from a re-analysis of the deposited data

Results flagged for a closer look

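In 5 of the 88 sets of 4 arrays (44 genes in both fractions), 1 array stood far from the other 3 of its fraction, and chance gives about 5% of such sets. Acads read 9.01 in low replicate 3, against 9.42 to 9.50 in the other low arrays. Acadvl read 9.40 in low replicate 2, against 9.83 to 9.87. Pex2 read 7.89 in low replicate 2, against 8.12 to 8.15. Echs1 read 9.77 in low replicate 1, against 9.62 to 9.63, and Cat read 12.29 in low replicate 3, against 12.15 to 12.17. All 5 were in the low fraction.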

How the results depend on the processing

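At an adjusted p threshold of 0.01, 0 of the 44 genes rose and 0 fell in limma (18 and 1 had an unadjusted p under 0.05), and 1 of the 82 other pathway genes rose. At that threshold 0.329% of all probe sets were called higher. With the spike-in covariate 0 rose, 0 fell and 0 of the others rose. In that fit the median difference was -0.01 and 15 uncalled genes changed sign, while no called gene did. Since the spike-in level separates the fractions, that fit can hardly tell it apart from the fraction. The other pathway genes had 5 rises after quantile normalization and 13 at a threshold of 0.10. Leaving out 1 array gave 2 to 16 rises of the 44 and 1 to 13 of the others, with 1 fall of the 44 each time. The other alternatives gave 11 to 17 rises and 1 fall, and in them 3.84% to 9.28% of the probe sets tested were called higher. Replicate numbers are shared by the fractions, but the labels state no pairing, so the numbers were not taken as pairs in the main fit. Same-numbered arrays deviated together with correlations of 0.015 to 0.27, of which 1 passed 0.1. Differently numbered arrays had correlations of -0.29 to 0.17, so the value of replicate 1 (0.27) was the highest of all. With the replicate block there were 12 rises and 1 fall, with Pex2 lost and Pex7 gained, and 9 rises and 0 falls of the other pathway genes, with Dao lost (adjusted p = 0.0615). Decr1 and Pex10 were too dim for a size to be read.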

Other observations

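Other members with a gene facing away from them in the promoter table were looked at after the values of Hadhb and Hadha were seen. Windows were shared by Acadsb and the zinc finger gene Ikzf5 (222 bases), Acad8 and Thyn1 (227 bases), Acad10 and Brap, Pex11a and Wdr93, and Pex13 and Pus10 (208 bases). None of these partners was called by limma, and the partner of Pex5 had no probe set under its symbol. Their differences were 0.23 for Ikzf5 beside -0.17 for Acadsb, 0.20 for Thyn1 beside -0.04 for Acad8, and -0.34 (adjusted p = 0.0642) for Brap beside 0.09 for Acad10. For Wdr93 beside Pex11a they were -0.12 and 0.13, and for Pus10 beside Pex13 0.04 and 0.13. Etfdh shares 189 bases with 4930579G24Rik, which differed by 0.11 (adjusted p = 0.612). Across these 6 pairs and that of Hadhb with Hadha, the sign of the difference was the same in the pairs of Hadhb, Etfdh and Pex13 and opposite in the others.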
